A study of Homo sapiens and Mus musculus with 24 samples.

Results

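The hnRNP family mRNAs described here are those of 10 genes, HNRNPA1, HNRNPA2B1, HNRNPC, HNRNPD, HNRNPH1, HNRNPK, HNRNPL, HNRNPM, HNRNPR and HNRNPU, and of the 10 mouse genes with the same symbols. They were chosen by name and not by a measured value, though with earlier results of these data known. They are 10 of 58381 human and 10 of 53715 mouse genes counted. All 10 passed the filter on low counts in each of 4 cell types. Their RNA was measured with and without UV irradiation of living cells, with 3 samples each way per cell type, 24 samples in all. HepG2 is a human hepatocellular carcinoma line, HEK293 (HEK293T in the methods of the study) a human embryonic kidney line and Neuro2a a mouse neuroblastoma line, and HippCulture is a primary culture of hippocampal neurons from E16.5 mouse embryos, which had been treated with AraC against dividing glia. The irradiated cells received ultraviolet light in cold buffer on ice and differed from their controls in no other labelled treatment. RNA of all samples was extracted with TRIzol, a phenol reagent, and depleted of ribosomal RNA. The labels do not say whether replicates were separate cultures. Figure legends of the study call them biological triplicates without saying how they were grown. The p-values measure the spread between these samples, which the edgeR tests in part pool over genes.

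Heterogeneous nuclear ribonucleoproteins (hnRNPs) coat nascent transcripts in the nucleus and govern their splicing, export, stability and translation. Many of them bind their own pre-mRNA or that of a relative and tune splicing of conserved exons there, so that the family holds its own levels in check. In UPA-seq, the assay used here, UV light joins RNA covalently to proteins that touch it, and the joined complexes leave the aqueous phase on phenol extraction. Counts are of the RNA recovered and then copied into cDNA. The study proposes that UV-made bonds also hindered reverse transcription, and counts cannot tell this from lower recovery. In such bulk samples fewer cells of a type and less RNA per cell cannot be told apart either.

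The promoter windows of 5 members hold the same run of letters at the start site, which is shown as a feature that the choice by name did not use. RefSeq start sites of GRCh38.p14 gave a window (250 bases before to 50 after the start) for 9 of the 10 human genes, all but HNRNPA1. The letters GCCATTT, or AAATGGC on the opposite strand, occurred from 20 bases before to 40 after a start site in 5 of these 9 genes, or 42.9% of their 14 windows, and in 1.14% of all 35116 windows. Anywhere in the window they occurred in 4.39% of all windows. The motif was chosen after the sequences were seen. Its first letters belong to the recognition sequence of the transcription factor YY1. Each sequence reads 5′ to 3′ along the gene, with the motif in capitals.
HNRNPC, chr14:21269413-21269435, minus strand: actcggggGCCATTTtgtgaaga
HNRNPD, chr4:82373973-82373995, minus strand: ttccgtcgGCCATTTtaggtggt
HNRNPR, chr1:23344270-23344292, minus strand: gcgcgcgcGCCATTTctagtcgt
HNRNPH1, upstream start, chr5:179623659-179623681, minus strand: gcccgctgGCCATTTcgtcttag
HNRNPH1, downstream start, chr5:179623390-179623412, minus strand: cggccgccGCCATTTcctttcct
HNRNPM, chr19:8444989-8445011, plus strand: cgcggagaAAATGGCggcagggg
In HNRNPC, HNRNPD, HNRNPR and both HNRNPH1 windows the motif lay on the sense strand, its first base between position -3 and position 16 relative to the start, while in HNRNPM it lay on the antisense strand at position 23. The 5 genes with the motif did not move together with UV. HNRNPD, HNRNPR and HNRNPH1 were lower in all 4 cell types, HNRNPC was higher in HepG2 and HNRNPM was called in none.

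Libraries held 36573473 to 53511592 counts in HepG2 and 6910907 to 11188033 in the other cell types, and the lowest count of any member in any sample was 37. Levels are given in 2 units. CPM scales each count to a fixed library size after TMM, edgeR's scaling of libraries to the bulk of their genes, and RPKM scales it to the library total and to each kilobase of annotated exon. TMM factors averaged 1.57 in nonirradiated and 0.64 in irradiated HepG2 samples, and the gap was narrower in HEK293, Neuro2a and HippCulture. "Higher" and "lower" with UV thus compare a gene with most others of its cell type. By library totals alone the median of all genes tested shifted to -1.38 (HepG2), -0.84 (HEK293), -1.32 (Neuro2a) and -0.59 (HippCulture) on the log2 scale, and every member had a negative value, with 10, 8, 10 and 10 members called lower and none higher. All genes called lower on that scale were 78.7%, 54.6%, 73.8% and 49.5%, and those called higher 8.62%, 7.61%, 6.07% and 7.14%. Markers matched the labels of HepG2 (8 of 8 hepatocyte genes at 0.5 CPM or more, ALB highest), Neuro2a (5 of 6 sympathoadrenal genes, Hand2 highest) and HippCulture (8 of 8 neuronal genes, Map2 highest without UV). HEK293 had no marker list of its own, and hepatocyte genes other than TF were below 0.5 CPM there. HippCulture also held 5 of 5 astrocyte and 5 of 5 oligodendrocyte lineage genes. Reaching 0.5 CPM does not by itself mark a cell type. Nonirradiated HEK293 had 5 of 5 astrocyte, 4 of 5 oligodendrocyte lineage and 6 of 8 neuronal genes at that level. Scaled to library totals, the astrocyte genes summed to 1078 to 1237 CPM in nonirradiated HippCulture, 85.2 to 110 in HEK293 and 189 to 208 in HepG2. The oligodendrocyte lineage genes summed to 83.0 to 95.8 CPM in HippCulture and 36.6 to 48.7 in HEK293.

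Without irradiation HNRNPA1 and HNRNPK, a poly(C)-binding protein with KH domains, led the order of levels. In RPKM the mean levels of the 10 genes ranged from 8.47 to 76.6 in HepG2, from 17.4 to 165 in HEK293, from 6.11 to 158 for Neuro2a and from 4.72 to 51.9 for HippCulture. The highest mean was 9.04, 9.52, 25.9 and 11 times the lowest in these cell types. The level of HNRNPK lay above 97.8% of the protein-coding genes tested in HepG2 and the level of Hnrnpr above 50.5% in HippCulture, the highest and lowest positions in those cells.

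HNRNPA1, an RRM protein that represses splice sites and shuttles to the cytoplasm, had 48.0, 59.6 and 64.3 RPKM in the nonirradiated HepG2 samples. It had 155, 174 and 166 RPKM in HEK293 samples. Hnrnpa1 had 157, 150 and 167 RPKM in Neuro2a and 34.6, 29.5 and 30.7 RPKM in HippCulture. It ranked 1 of 10 in HEK293 and Neuro2a and 3 of 10 in HepG2 and HippCulture. HNRNPK had 65.3, 83.0 and 81.4 RPKM in HepG2 samples and 157, 146 and 122 RPKM in those of HEK293. Hnrnpk had 91.3, 95.2 and 93.0 RPKM in Neuro2a and 54.0, 53.3 and 48.4 RPKM in HippCulture. It ranked highest in HepG2 and HippCulture, and its samples overlapped those of HNRNPA1 in HEK293 but not in the mouse cells. HNRNPD, known as AUF1, a binder of AU-rich elements in decaying messages, was lowest in 3 cell types, with 10.9, 7.30 and 7.25 RPKM in HepG2, 18.0, 18.3 and 15.8 in HEK293, and 7.34, 5.30 and 5.68 in Neuro2a. In HippCulture the lowest gene was Hnrnpr, with 5.28, 4.62 and 4.25 RPKM.

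The order between these ends was less sharp. Of the 9 pairs of neighbours in the order of mean RPKM, the sample ranges overlapped in 6 in HepG2, 7 in HEK293, 6 in HippCulture and 1 in Neuro2a (Hnrnph1 and Hnrnpk). Overlap of ranges does not show whether such neighbours differ, since both genes were measured in each library. Within single libraries the order was steadier, since 2, 4, 5 and 1 of these overlapping pairs (HepG2, HEK293, HippCulture and Neuro2a) stood in the same order in all 3 samples, HNRNPK above HNRNPC in HepG2 and HEK293 among them. HNRNPC, a nuclear protein that binds U-tracts and counts among the core proteins of hnRNP particles, ranked 2 of 10 in HepG2 with 65.6 ± 10.1 RPKM (SD, n = 3) and 3 of 10 in HEK293 with 110.2 ± 22.7, but 7 of 10 in Neuro2a with 39.2 ± 2.57. Exon length affects the order. The annotated exons of HNRNPU sum to 22512 bases, of which 69.5% lie outside its representative transcript, and those of Hnrnpr to 22199 bases. Per length of a representative transcript, a choice made after seeing the data, HNRNPH1 ranked highest in HepG2 with 166 ± 27.6 RPKM and in HEK293 with 261 ± 26.0 (SD, n = 3 each). HNRNPA1 then ranked 5 and 4 of 10 in these lines.

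**Figure D1:**
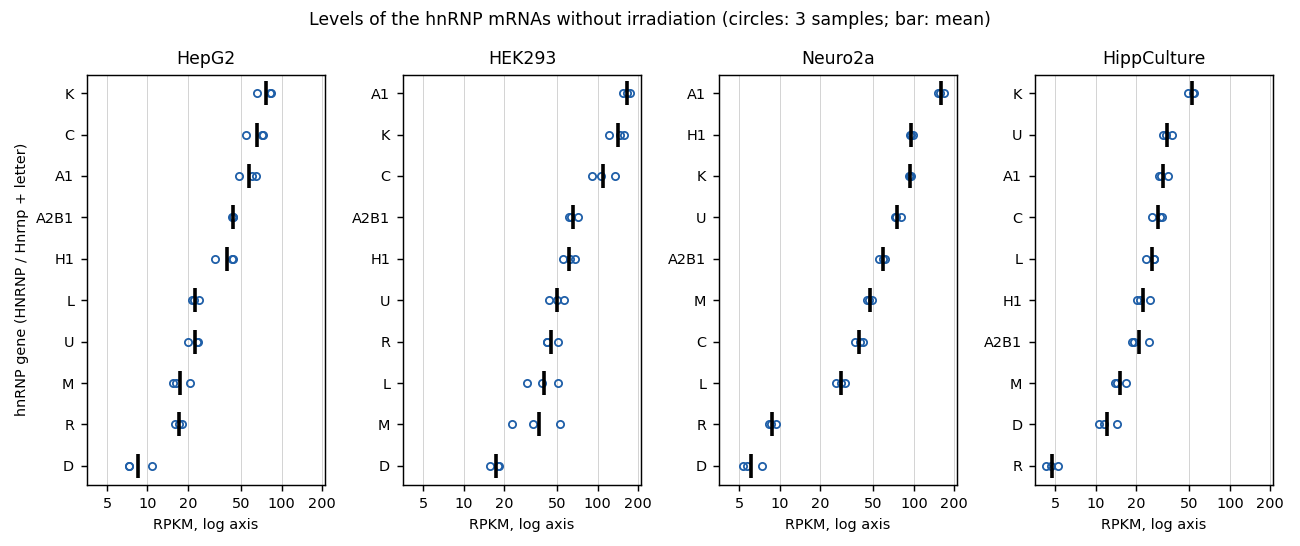
Levels of the 10 hnRNP mRNAs in the nonirradiated samples of each cell type, in RPKM on a log axis, ordered by mean. Circles are the 3 samples and bars their mean. HNRNPA1 or HNRNPK leads each panel, and HNRNPD is at the bottom in all but HippCulture.

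The members of the family differed in their change with UV. On the TMM scale HNRNPA1 was higher in 3 cell types (but not in Neuro2a by DESeq2), and HNRNPD, HNRNPH1, HNRNPL and HNRNPR were lower in all 4. HNRNPU was lower in 3 (and in HepG2 too by DESeq2), HNRNPK in 2 and HNRNPA2B1 in 1. HNRNPC was higher in 1, and HNRNPM was called in none. In HepG2, 4 of the 10 members were lower and 2 higher at an adjusted p under 0.05, against 40.7% and 38.1% of all 20117 genes tested. In HEK293, 5 were lower and 1 higher (26.4% and 24.2% of 20472 genes). In Neuro2a 7 were lower and 1 higher (33.0% and 28.9% of 17425 genes), and in HippCulture 6 were lower and none higher (25.9% and 26.1% of 18488 genes), nor was any higher by DESeq2 or at an unadjusted p under 0.05. Among protein-coding genes alone the shares lower and higher were 34.2% and 45.9% (HepG2), 25.8% and 27.9% (HEK293), 31.5% and 33.3% (Neuro2a) and 24.9% and 30.9% (HippCulture). Unless another setting is named, calls and adjusted p values are from the quasi-likelihood test of edgeR without pairing of samples. They were adjusted by Benjamini-Hochberg over every gene tested. The 3 irradiated and 3 nonirradiated samples did not overlap for 7, 6, 9 and 7 members (HepG2, HEK293, Neuro2a and HippCulture), compared with 82.5%, 59.2%, 67.4% and 60.1% of all genes.

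The median log2 fold change of the members was -0.08 in HepG2, like the -0.08 of all genes. It was -0.35 in HEK293, -0.57 in Neuro2a and -0.27 in HippCulture, where all genes had -0.08, -0.14 and -0.04. Protein-coding genes alone had medians of 0.17, 0.01, -0.03 and 0.05 (HepG2, HEK293, Neuro2a and HippCulture), and the member median lay below these by 0.24, 0.36, 0.53 and 0.32. Of the 10 members, 5, 4, 2 and 2 lay above the median of all genes and 2, 3, 2 and 0 above that of protein-coding genes. Single libraries mattered in the unpaired fit of HEK293, where 1 member was lower without UV replicate 2, 1 without UV replicate 3 and 3 without nonirradiated replicate 1. A fit with the replicate number as a block pairs same-numbered samples. In HEK293 it called HNRNPD, HNRNPH1, HNRNPL, HNRNPR and HNRNPU lower at adjusted p of 4.42e-07, 2.69e-12, 6.98e-16, 1.93e-08 and 1.6e-14 (edgeR). The SEs of the 10 members with the block were nearly the same, 0.072 to 0.079, against 0.126 to 0.407 unpaired. These p-values thus rest mainly on a spread pooled over genes and do not measure that of each member. The block also called HNRNPK lower and HNRNPM higher there. The share of all genes called with the block within a cell type is not given, so these calls are not shown to be particular to the members. Leaving out libraries was not repeated with the block. In HippCulture 4 members were lower without nonirradiated replicate 1 and 4 without nonirradiated replicate 3. In HepG2 6 were lower and 3 higher without nonirradiated replicate 1, and 1 was higher without UV replicate 1. In Neuro2a the call of the 1 higher member, Hnrnpa1, was lost on leaving out any library but UV replicate 2, and 8 were lower without UV replicate 1.

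**Figure D2:**
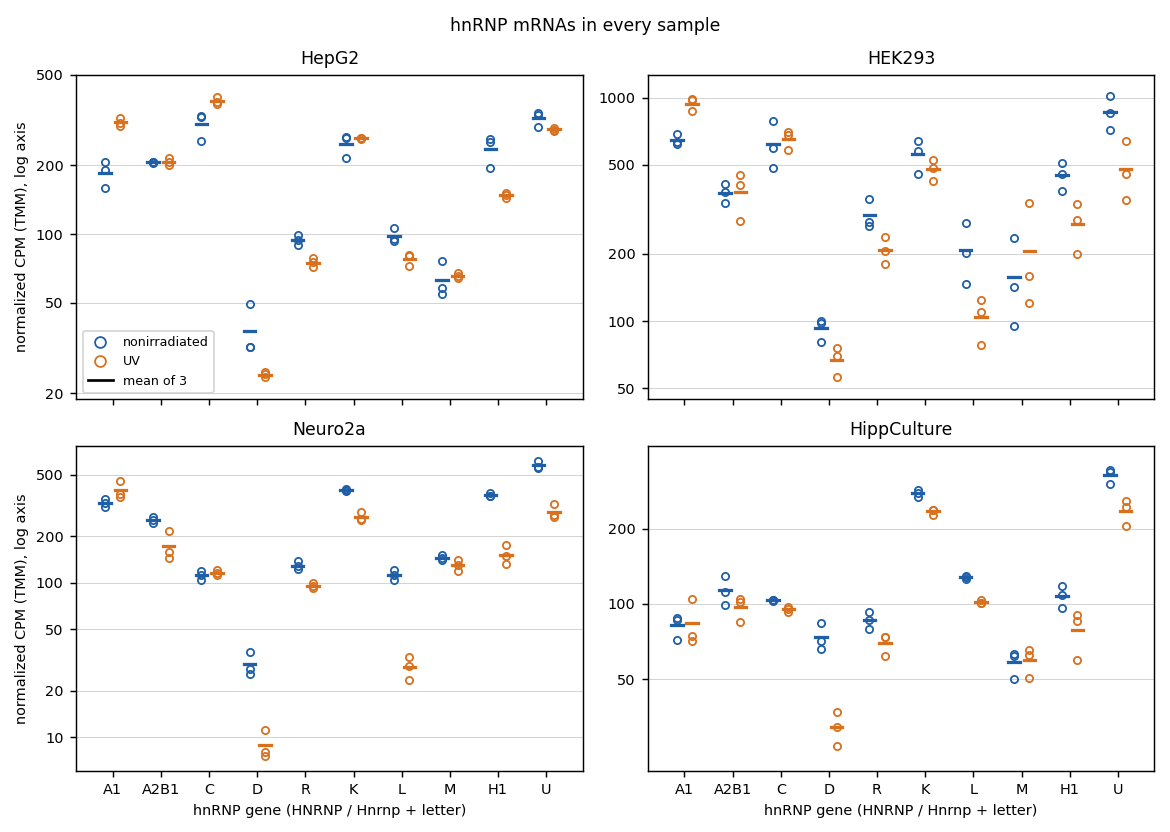
TMM-scaled CPM of each hnRNP mRNA in every sample, on a log axis, with nonirradiated samples in blue, UV samples in orange and the mean of 3 as a bar. HNRNPD and HNRNPL fell furthest in Neuro2a, and HNRNPA1 samples are higher with UV in HepG2, HEK293 and Neuro2a on this scale, though not by library totals alone.

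Among the core A and B proteins, HNRNPA1 and HNRNPA2B1, only HNRNPA1 had a positive call. HNRNPA1 lies on chromosome 12 from 54280193 to 54287088 of hg38, and Hnrnpa1 on chromosome 15 from 103240432 to 103246692 of mm10. It had 159, 191 and 207 CPM in nonirradiated and 298, 307 and 322 CPM in irradiated HepG2 cells. The groups did not overlap, and the log2 fold change was 0.74 (standard error, SE, 0.10, adjusted p = 0.000161), but -0.57 by library totals alone. In HEK293 the values were 630, 685 and 620 CPM without and 984, 971 and 867 CPM with UV. These did not overlap either, with a log2 fold change of 0.54 (SE 0.13, adjusted p = 0.00633) and -0.22 by library totals. In Neuro2a it had 329, 311 and 349 CPM without and 456, 360 and 375 CPM with UV, the highest value being that of UV replicate 1. The log2 fold change of 0.27 (SE 0.11, adjusted p = 0.0412) kept its call in only 2 of 12 alternative settings, and was -0.92 by library totals. In HippCulture the groups overlapped, at 86.5, 72.0 and 88.1 CPM without and 105, 71.3 and 74.3 CPM with UV (log2 fold change 0.03, SE 0.12, adjusted p = 0.864).

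HNRNPA1 is also the member with most copies elsewhere in the genome. The human annotation names 76 copies, which held 0.344% to 6.24% of the counts of HNRNPA1 per sample. How reads mapping to several places affected its values was not tested.

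HNRNPA2B1, a splicing factor that also carries RNA along neuronal processes, overlapped between groups in both human lines. It had 208, 205 and 208 CPM without and 201, 207 and 216 CPM with UV in HepG2 (log2 fold change 0.01, SE 0.07, adjusted p = 0.911). With a filter of at least 10 counts in every sample it was lower in HepG2, at -0.26 (adjusted p = 0.0037, edgeR). In HEK293 it had 378, 411 and 339 CPM without and 451, 405 and 281 CPM with UV (0.01, SE 0.18, adjusted p = 0.968). In Neuro2a Hnrnpa2b1 fell from 268, 253 and 243 CPM to 215, 158 and 146 CPM, with no overlap and a log2 fold change of -0.56 (SE 0.13, adjusted p = 0.00186). In HippCulture it was -0.22 (SE 0.10, adjusted p = 0.0772), and the groups overlapped, but it passed with at least 1 count over the samples (adjusted p = 0.0292) and with at least 10 in each (adjusted p = 0.0169). Human HNRNPA2B1 lies on chromosome 7 from 26189927 to 26201529 and the mouse gene on chromosome 6 from 51460932 to 51469894.

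HNRNPC (chromosome 14, 21209136 to 21269494, and mouse chromosome 14, 52073377 to 52104028) was higher in HepG2 alone, on the TMM scale. There it had 256, 331 and 327 CPM without and 401, 374 and 382 CPM with UV, a log2 fold change of 0.34 (SE 0.11, adjusted p = 0.0162), and -0.97 by library totals. Without UV replicate 1 the adjusted p was 0.0654, and the call was lost. It was also lost with at least 10 counts in every sample, a filter that lowered all members in HepG2 and put the log2 fold change at 0.069 (adjusted p = 0.515). In HEK293 the samples ranged from 483 to 788 CPM without and from 583 to 703 CPM with UV, a log2 fold change of 0.08 (SE 0.19). The value was 0.05 (SE 0.09) in Neuro2a and -0.12 (SE 0.08) in HippCulture, and none of these 3 was called. The filter of at least 10 counts, which lowered the member median in HippCulture, put the value there at -0.21 (adjusted p = 0.0155), called lower.

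HNRNPD (chromosome 4, 82352498 to 82374503) and Hnrnpd (chromosome 5, 99955935 to 99978938) were lower everywhere, with the larger changes in the mouse cells. In HepG2 it fell from 49.2, 32.0 and 32.0 CPM to 24.7, 24.2 and 23.6 CPM, where nonirradiated replicate 1 stood above the others. The log2 fold change was -0.64 (SE 0.16, adjusted p = 0.00518). In HEK293 it fell from 100, 98.6 and 80.5 CPM to 75.7, 69.8 and 56.0 CPM (-0.47, SE 0.16, adjusted p = 0.0319), a call lost without any of 4 libraries taken in turn (nonirradiated replicates 1 and 2 and UV replicates 2 and 3). In Neuro2a the values were 35.8, 25.6 and 27.7 CPM without and 11.2, 7.60 and 7.999 CPM with UV. The log2 fold change was -1.73 (SE 0.18, adjusted p = 1.43e-06), on 37 to 460 counts per sample. In HippCulture the values were 83.8, 65.7 and 70.8 CPM without and 37.1, 27.0 and 32.3 CPM with UV, a log2 fold change of -1.18 (SE 0.11, adjusted p = 3.58e-08). In none of the 4 cell types did the groups overlap. The mouse gene shares 385 exon bases, 5.24% of its exons, with the antisense gene Gm17092, whose counts were 6.04% to 15.0% of those of Hnrnpd.

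HNRNPR (chromosome 1, 23303771 to 23344336) and Hnrnpr (chromosome 4, 136310942 to 136359447) encode an RRM and RGG protein that binds mRNAs in axons and at their 3′ ends. Its change was the most even among cell types, and the groups overlapped in none of them. The gene fell from 89.8, 93.9 and 99.4 CPM to 75.1, 71.5 and 78.3 CPM in HepG2 (-0.33, SE 0.07, adjusted p = 0.00213). The other log2 fold changes were -0.52 (SE 0.16, adjusted p = 0.0242) in HEK293, -0.44 (SE 0.09, adjusted p = 0.000954) in Neuro2a and -0.30 (SE 0.09, adjusted p = 0.00997) in HippCulture. The lowest and highest of the 4 differ by 0.23. The call was lost without nonirradiated replicate 1, UV replicate 2 or UV replicate 3 in HEK293, and without nonirradiated replicate 1 or 3 in HippCulture.

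HNRNPL, which binds CA-rich sequences and sets alternative exons, was the member with the widest range among cell types, 1.65 on the log2 scale. Hnrnpl lies on chromosome 7 from 28808541 to 28822266, and human HNRNPL on chromosome 19 from 38836388 to 38852347. In Neuro2a it fell from 121, 111 and 104 CPM to 32.9, 29.0 and 23.4 CPM, a ratio of 0.254 and a log2 fold change of -1.98 (SE 0.12, adjusted p = 1.27e-08). In HippCulture, where it started at about the same level, it went from 130, 126 and 128 CPM to 101, 100 and 103 CPM (-0.33, SE 0.08, adjusted p = 0.00118). In HEK293 the samples were at 275, 202 and 147 CPM without and 124, 110 and 78.6 CPM with UV, both led by replicate 1 (-0.996, SE 0.25, adjusted p = 0.0087). In HepG2 they were at 107, 95.2 and 93.0 CPM without and 80.6, 72.6 and 80.2 CPM with UV (-0.34, SE 0.08, adjusted p = 0.00392). No groups overlapped. Human HNRNPL shares 561 exon bases (8.22%) with the same-strand gene ENSG00000268083. The counts of that gene were 45.0% to 52.7% of those of HNRNPL without and 79.1% to 82.2% with UV in HepG2, and 42.6% to 48.4% and 79.2% to 103% in HEK293. How far reads counted for both genes set these values was not tested.

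HNRNPK (chromosome 9, 83968083 to 83980616) overlapped between groups in both human lines, and Hnrnpk (chromosome 13, 58391142 to 58403343) was lower in both mouse cell types. In HepG2 the irradiated samples had 263, 264 and 261 CPM and the nonirradiated 217, 267 and 263 CPM (0.08, SE 0.09, adjusted p = 0.449). The filter of at least 10 counts in every sample, which lowered all members in HepG2, gave -0.19 (adjusted p = 0.0495). In HEK293 the log2 fold change was -0.22 (SE 0.16, adjusted p = 0.284), and with the replicate number as a block it was lower, at an adjusted p of 0.0106. In Neuro2a it fell from 391, 404 and 400 CPM to 289, 258 and 255 CPM (-0.58, SE 0.09, adjusted p = 9.18e-05). In HippCulture it fell from 277, 267 and 285 CPM to 237, 227 and 238 CPM (-0.24, SE 0.08, adjusted p = 0.0136), and that call was lost without nonirradiated replicate 1 or 3. Antisense HNRNPK-AS1 shares 6.04% of the exon bases of HNRNPK, and Rmi1 5.10% of those of Hnrnpk.

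HNRNPM, a splicing factor that binds GU-rich RNA, was not called in any cell type. It had 76.0, 54.7 and 57.9 CPM without and 64.4, 65.4 and 67.6 CPM with UV in HepG2 (0.07, SE 0.12, adjusted p = 0.62). In HEK293 the ratio of its highest to its lowest nonirradiated sample was the largest of any member there, at 236, 143 and 94.9 CPM without and 337, 160 and 120 CPM with UV. The log2 fold change was 0.38 (SE 0.41, adjusted p = 0.462), and with the replicate number as a block it was higher at an adjusted p of 0.00011, but -0.41 by library totals. In Neuro2a it was -0.17 (SE 0.09, adjusted p = 0.14), and in HippCulture 0.03 (SE 0.11, adjusted p = 0.813). It was lower in Neuro2a with the block at an adjusted p of 0.0308. The filter of at least 10 counts in every sample, which lowered the member median in Neuro2a, also called it lower there (adjusted p = 0.0093). The mouse gene (chromosome 17, 33646233 to 33686860) shares 1169 exon bases, 24.9% of its exons, with the same-strand gene March2. The counts of March2 were 7.31% to 9.07% of those of Hnrnpm in nonirradiated and 17.4% to 20.4% in irradiated Neuro2a samples, and 42.7% to 58.3% and 64.7% to 93.7% in HippCulture. Their part in the values of Hnrnpm was not tested. Human HNRNPM lies on chromosome 19 from 8444767 to 8489114 and shares 6.15% of its exon bases with ENSG00000279827.

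HNRNPH1, which binds runs of G and shapes splice choice, was lower in all 4 cell types with no overlap between groups. It lies on chromosome 5 from 179614178 to 179634784, and Hnrnph1 on chromosome 11 from 50376990 to 50386528. In HepG2 it fell from 196, 260 and 254 CPM to 149, 144 and 151 CPM (-0.68, SE 0.11, adjusted p = 0.000402). In HEK293 it fell from 510, 454 and 382 CPM to 334, 284 and 200 CPM (-0.72, SE 0.20, adjusted p = 0.0151), a call lost without UV replicate 2 or UV replicate 3. In Neuro2a it fell from 363, 366 and 381 CPM to 175, 148 and 132 CPM (-1.29, SE 0.11, adjusted p = 2.01e-07). In HippCulture the values were 118, 96.4 and 109 CPM without and 90.1, 59.8 and 85.2 CPM with UV (-0.45, SE 0.12, adjusted p = 0.00268), where UV replicate 2 was lowest.

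HNRNPU, also called scaffold attachment factor A, binds chromatin-associated RNA and DNA in the nuclear matrix. It lies on chromosome 1 from 244840638 to 244864560, and Hnrnpu on mouse chromosome 1 from 178321108 to 178337797. Its change was smallest in HepG2, with 294, 339 and 332 CPM without and 293, 285 and 285 CPM with UV. There the groups did not overlap, but the test missed the threshold (-0.16, SE 0.08, adjusted p = 0.0904). DESeq2 size factors, the DESeq2 test and a filter of at least 10 counts in every sample lowered the member median in HepG2, to -0.14, -0.14 and -0.35. With these HNRNPU was called lower there, at -0.23 (adjusted p = 0.0307, edgeR), -0.23 (adjusted p = 0.016, DESeq2) and -0.43 (adjusted p = 0.000334, edgeR). In HEK293 it fell from 1015, 858 and 719 CPM to 639, 454 and 348 CPM (-0.85, SE 0.23, adjusted p = 0.0126), which was lost without UV replicate 2 or 3. In Neuro2a it fell from 614, 554 and 565 CPM to 324, 268 and 273 CPM (-1.002, SE 0.10, adjusted p = 1.3e-06), and in HippCulture from 342, 300.5 and 336 CPM to 258, 206 and 244 CPM (-0.47, SE 0.09, adjusted p = 0.000237). HNRNPU shares 3502 exon bases (15.6%) with COX20 on the opposite strand, and the counting commands name no strand option. COX20 had counts equal to 10.5% to 11.05% of those of HNRNPU without and 17.6% to 18.7% with UV in HepG2, and 8.79% to 14.4% and 4.78% to 7.38% in HEK293, and its part in the values was not tested.

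**Figure D3:**
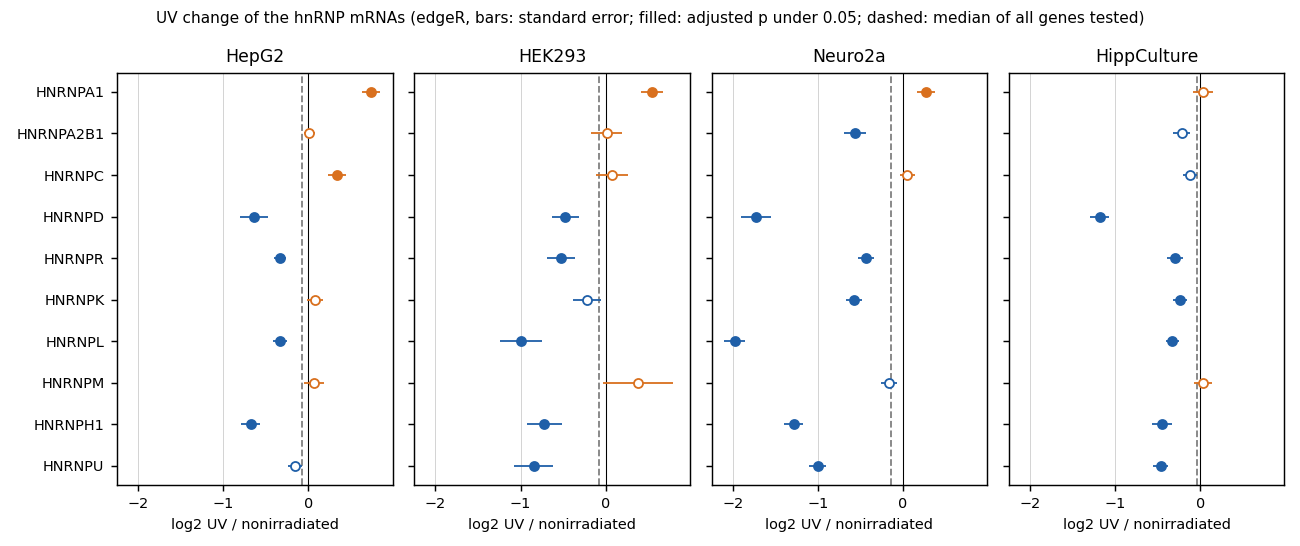
Log2 ratio of UV-irradiated to nonirradiated samples for each hnRNP mRNA in the 4 cell types, with SEs (edgeR, 3 against 3 samples). Filled points passed an adjusted p of 0.05 and the dashed line is the median of all genes tested. HNRNPA1 stands to the right in HepG2 and HEK293 on this TMM scale (negative by library totals alone), and HNRNPD, HNRNPR, HNRNPL and HNRNPH1 are filled to the left in each panel.

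The order of the members by log2 fold change was alike between cell types. No value over all genes was computed, so this is not shown to be particular to the family. The study reports a strong correlation of UV changes between HepG2 and HEK293, which it describes for lncRNAs. Spearman's ρ between pairs of cell types was 0.78 to 0.84 and Pearson's r 0.57 to 0.84, each over the 10 members, which share libraries within a cell type. Averaged over the 4 cell types the log2 fold change ran from -1.01 for HNRNPD, -0.91 for HNRNPL and -0.78 for HNRNPH1 to 0.39 for HNRNPA1.

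Shares within the family do not depend on how libraries are scaled, but they do depend on the gene length used. Each gene's RPKM was divided by the summed RPKM of the 10 genes in the same sample, and groups were compared with a two-sided exact permutation test, for which the smallest p with 3 against 3 samples is 0.1. HNRNPA1 made up 14.4%, 15.4% and 16.51% of the hnRNP pool in nonirradiated and 22.9%, 23.9% and 24.3% in irradiated HepG2 cells. It made up 19.2%, 23.6% and 25.6% against 31.1%, 33.3% and 36.4% in HEK293. In Neuro2a its share was 25.3%, 25.0% and 27.4% without and 41.7%, 39.1% and 41.3% with UV, the largest shift of any member. In HippCulture its share was 12.8%, 12.02% and 13.4% without and 18.1%, 14.6% and 13.7% with UV. The groups did not overlap in any of the 4, each at the smallest exact p of 0.1. Per length of the representative transcript, HNRNPA1 was 9.19% ± 0.66 and 15.3% ± 0.56 in HepG2 (SD, n = 3, exact permutation p = 0.1), and the groups again did not overlap in any of the 4.

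On the other side, HNRNPH1 went from 10.6% ± 0.91 to 6.09% ± 0.07 of the pool in HepG2 and from 15.7% ± 0.55 to 8.38% ± 0.46 in Neuro2a (SD, n = 3 each, exact permutation p = 0.1). Per transcript length the HepG2 shares of HNRNPH1 were 19.6% ± 1.66 and 12.2% ± 0.12. Hnrnpu went from 12.3% ± 0.45 to 8.05% ± 0.14 in Neuro2a cells and from 13.8% ± 0.13 to 11.9% ± 0.43 in HippCulture (SD, n = 3 each, exact permutation p = 0.1). Hnrnpl went from 4.67% ± 0.32 to 1.54% ± 0.16 in Neuro2a (exact permutation p = 0.1) but from 10.5% ± 0.54 to 10.1% ± 0.83 in HippCulture (SD, n = 3, exact permutation p = 0.4). The mean share of HNRNPC was larger with UV than without in each cell type, with no overlap in HepG2 and Neuro2a and overlap in HEK293 and HippCulture. HNRNPK had 20.6% ± 0.95 and 20.1% ± 0.41 in HepG2 and 20.95% ± 0.88 and 21.3% ± 1.36 in HippCulture (SD, n = 3), and these groups overlapped. Without overlap it went from 19.3% ± 0.53 to 16.98% ± 1.505 in HEK293 and from 15.3% ± 0.58 to 13.4% ± 0.45 in Neuro2a (SD, n = 3, exact permutation p = 0.1 each). Per transcript length the HEK293 groups overlapped (15.8% ± 0.36 and 15.2% ± 1.63, exact permutation p = 0.8, SD, n = 3).

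**Figure D4:**
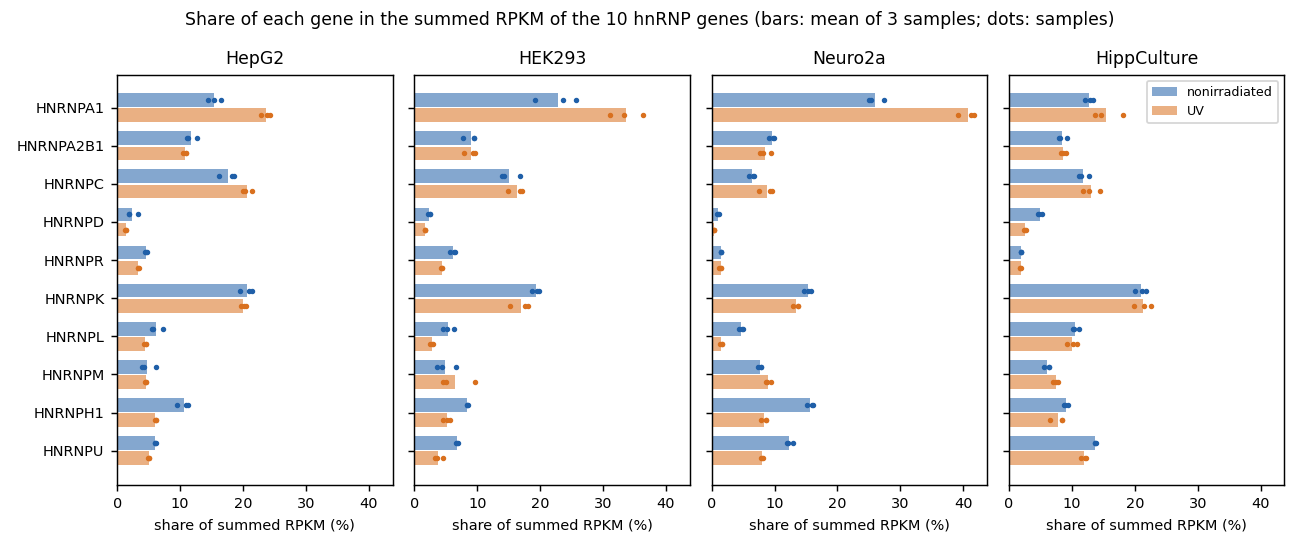
Share of each gene in the summed RPKM of the 10 hnRNP genes, as bars for the mean of 3 nonirradiated (blue) and 3 UV (orange) samples with the samples as dots. The HNRNPA1 bar is longer with UV in every cell type, from 25.9% to 40.7% in Neuro2a, and the HNRNPH1 and HNRNPU bars are shorter.

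Whether the UV change of a member differed between the cell types of a species was tested as an interaction in a joint edgeR fit of 12 samples. Between HepG2 and HEK293, 0 of 10 members differed, against 4.85% of 16759 genes with the lower and 3.10% with the higher value in HepG2. HNRNPU had the smallest p, with a difference of 0.58 (SE 0.26, unadjusted p = 0.0395, adjusted p = 0.186, edgeR), and HNRNPL a difference of 0.55 (SE 0.27, adjusted p = 0.235). No member but HNRNPU had an unadjusted p under 0.05, and DESeq2 also called 0 members. With the replicate number as a block, whose numbers pair samples in HEK293 but not in HepG2, HNRNPU (0.62, adjusted p = 0.0091) and HNRNPL (0.54, adjusted p = 0.0080) had the higher value in HepG2, against 12.5% of all genes, while 8.62% had the lower. Without UV replicate 1 of HEK293, 1 member differed.

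Between Neuro2a and HippCulture, 4 members had the lower value in Neuro2a and none the higher, against 16.1% and 8.39% of 14973 genes. Hnrnpl differed most, by -1.65 (SE 0.15, adjusted p = 4.87e-07). Hnrnph1 differed by -0.84 (SE 0.18, adjusted p = 0.00255), Hnrnpu by -0.54 (SE 0.15, adjusted p = 0.0127) and Hnrnpk by -0.34 (SE 0.12, adjusted p = 0.0474). The last call was lost, at adjusted p up to 0.136, on leaving out any library but UV replicate 1 of Neuro2a or UV replicate 2 of HippCulture, and by DESeq2 (adjusted p = 0.0645). Of the other 6, Hnrnpd had -0.55 (SE 0.23, adjusted p = 0.0931) and Hnrnpa2b1 -0.35 (SE 0.18, adjusted p = 0.177). Both were called with the block (adjusted p = 0.0058 and 0.0116), whose numbers were taken to pair samples in Neuro2a but not in HippCulture. The share of all genes called with the block is not given. Scaled to library totals, the 8 neuronal markers of HippCulture summed to 3410 to 3813 CPM without UV and 1768 to 2304 CPM with it, and the 5 astrocyte markers to 1078 to 1237 CPM and 703 to 887 CPM. In nonirradiated Neuro2a the astrocyte sum was 3.00 to 3.22 CPM. Their part in these differences was not tested.

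The nonirradiated levels were tested in the same joint fits. HepG2 had lower levels than HEK293 of 5 members and higher levels of none, against 35.8% and 35.6% of all genes. The 5 were HNRNPA1 (log2 difference -1.09, SE 0.12, adjusted p = 2.18e-06), HNRNPR (-0.95, SE 0.13, adjusted p = 1.01e-05), HNRNPU (-0.71), HNRNPD (-0.59) and HNRNPK (-0.45). The HepG2 libraries were read on another sequencer model, so cell line and sequencer cannot be told apart. Without nonirradiated replicate 3 of HEK293, 8 members differed. Neuro2a had higher levels than HippCulture of 8 members and a lower level of 1, against 39.2% and 36.4% of all genes. Hnrnpa1 had a log2 difference of 2.14 (SE 0.14, adjusted p = 4.29e-12), Hnrnph1 of 1.92 (SE 0.13) and Hnrnpm of 1.46 (SE 0.11). Hnrnpd was the lower one, at -1.16 (SE 0.13, adjusted p = 5.2e-08), and Hnrnpl did not pass (-0.05, SE 0.09, adjusted p = 0.671).

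Over the 10 members, Spearman's ρ between the log2 fold change and annotated exon length was -0.56 in HepG2, -0.59 in HEK293, -0.48 for Neuro2a and -0.66 for HippCulture, where over all genes with a representative transcript it was -0.47, -0.50, -0.53 and -0.51. With the length of the representative transcript the members gave 0.32, 0.19, -0.27 and -0.44, and all genes -0.61, -0.64, -0.60 and -0.56. With the length of its 3′ UTR the members gave 0.20, 0.02, -0.08 and -0.55, and all genes -0.50, -0.53, -0.47 and -0.49. In HEK293, HNRNPR with a 3′ UTR of 5766 bases had -0.52, HNRNPA1 with 2543 bases had 0.54 and HNRNPL with 352 bases had -0.996. These are descriptions over 10 points from the same libraries.

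The rest of the family and the SR proteins, which often act against hnRNPs at splice sites, were counted beside the members. Of all genes, 40.7%, 26.4%, 33.0% and 25.9% were lower and 38.1%, 24.2%, 28.9% and 26.1% higher (HepG2, HEK293, Neuro2a and HippCulture). Of 18 other hnRNP genes, 6, 6, 12 and 11 were lower and 7, 1, 2 and 3 higher, with medians of -0.22, -0.14, -0.74 and -0.32. By library totals alone 17, 14, 17 and 15 of them were lower and 1, 1, 0 and 1 higher. In 3 cell types the most negative was PTBP3 or Ptbp3, a polypyrimidine tract binder, at -1.98 (SE 0.15, adjusted p = 3.59e-05) in HEK293, -2.73 in Neuro2a and -1.37 in HippCulture, and in HepG2 it was PTBP2, the neuronal paralogue, at -1.76 (SE 0.12). The most positive in each cell type was RALY, a close relative of HNRNPC. RALY had 83.1 ± 2.24 CPM without and 257 ± 3.34 CPM with UV in HepG2 (SD, n = 3), a log2 fold change of 1.63 (SE 0.07, adjusted p = 2.58e-07 from edgeR), and 1.28, 1.32 and 0.98 in HEK293, Neuro2a and HippCulture. By library totals alone the highest of the 18 still stood at 0.32, 0.52, 0.13 and 0.42. Of the SR genes, 8 of 13 were lower and 3 higher in HepG2, 5 of 13 lower in HEK293, 10 of 12 in Neuro2a and 10 of 13 in HippCulture, with none higher in the latter 3, all on the TMM scale. By library totals alone 13, 11, 12 and 13 of them were lower and none higher. Their medians were -0.67, -0.38, -0.84 and -0.38. Their most negative genes were SRSF12 in HepG2 (-1.34), SRSF6 in HEK293 (-1.47) and Srsf1 in Neuro2a (-1.84) and HippCulture (-0.87), and SRSF7 was the most positive in HepG2 (0.74).

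**Figure D5:**
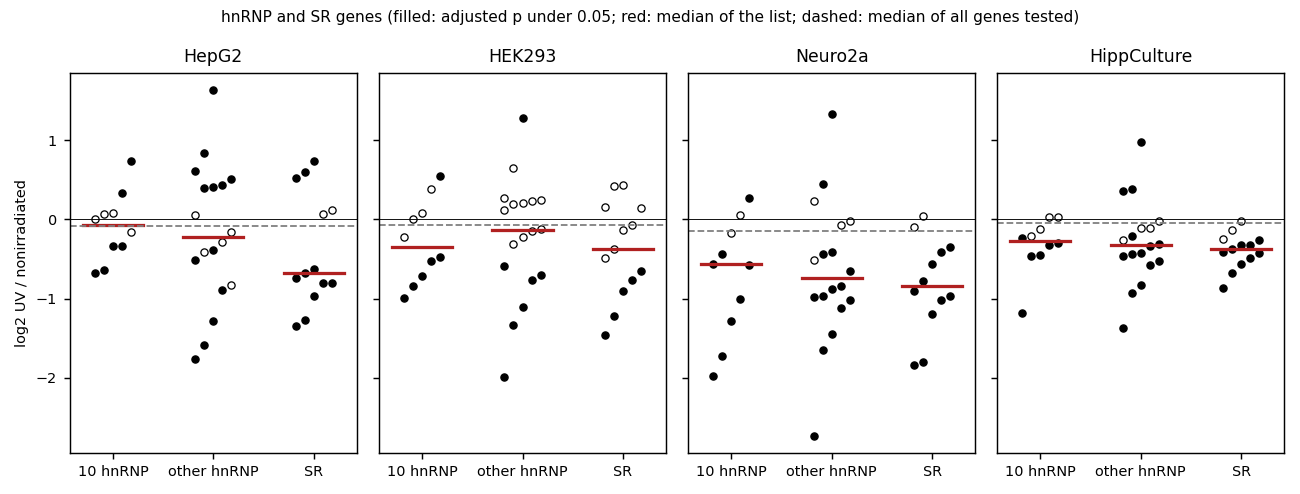
Log2 UV change of the 10 hnRNP members, 18 other hnRNP genes and 13 SR genes in each cell type (12 SR genes tested in Neuro2a), with filled points past an adjusted p of 0.05, the list median in red and the median of all genes as a dashed line. The SR median is the lowest of the 3 in each panel on the TMM scale, and RALY is the highest point.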

How the data were processed

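Ribosomal RNA-depleted RNA-seq libraries of 24 samples, 3 irradiated and 3 nonirradiated in each of 4 cell types, were used. Per the file headers and the submitters' processing notes, the authors mapped reads with TopHat2 2.1.1 to hg38 or mm10 and deposited raw counts per gene, made with featureCounts 1.5.3 (HepG2) or 1.6.1 on GENCODE 28 or M17. Reads on overlapping genes counted toward all of them, the commands name no strand option, and none requests multimapped reads. HepG2 was read on a HiSeq 4000 and the others on a HiSeq 2500. Labels and methods name different library kits, of which 1 marks strand.

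Groups followed the sample titles. Genes with a mean of at least 0.5 CPM in nonirradiated samples were tested on the counts as deposited with edgeR 4.0.16 (R 4.3.3) by TMM scaling and quasi-likelihood, with Benjamini-Hochberg adjustment over all genes tested and a threshold of 0.05. DESeq2 1.42.0, other scalings and filters, a replicate block and leaving out each sample were alternatives. RPKM used library totals and the exon length in the files. Shares were compared with exact permutation tests. Fits were tested on simulated counts with 200 changed genes. Sample totals ranged from 6910907 to 53511592 counts, and 0 pairs of samples were identical. No counting intervals are given.

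Replicate numbers come from the titles. Deviations of same-numbered irradiated and nonirradiated samples from their group means, over genes with a mean normalized count of at least 50, correlated at 0.62 to 0.81 in HEK293 and 0.25 to 0.56 in Neuro2a, where every pair exceeded 0.1 and the numbers were taken to pair samples. In HepG2 (-0.02 to 0.04) and HippCulture (0.08 to 0.23) they were not. Samples with unlike numbers correlated at -0.71 to 0.44 in HEK293 and -0.45 to 0.23 in Neuro2a. The positive values there were those between replicates 2 and 3, so mainly replicate 1 stood apart.

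All 10 members in each cell type were named, with the most negative and most positive called gene of 2 comparison lists and genes sharing over 5% of a member's exon bases. Members, lists and tests were chosen with earlier results of these data known. Representative transcripts (GENCODE 44 and M21) were added after seeing the data.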

Additional observations from a re-analysis of the deposited data

Results flagged for a closer look

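The UV change of 4 members differed between Neuro2a and HippCulture in the test of the difference itself, an interaction term in edgeR with adjustment over all genes. The log2 fold change in Neuro2a minus that in HippCulture was -1.65 for Hnrnpl, -0.84 for Hnrnph1, -0.54 for Hnrnpu and -0.34 for Hnrnpk, the last of which lost its call without most single libraries. No cause was tested. Groups of 3 samples are too small for a check of single outlying samples.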

How the results depend on the processing

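Of the counts and medians of the members, 177 recomputed values stayed within their limits and 39 moved. HNRNPD, HNRNPH1, HNRNPL and HNRNPR kept a negative sign in every cell type under every alternative. Where a direction or call changed, the cause was not tested beyond what the alternative changes by construction.

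By library sizes alone, which shifts all genes, 10 members in HepG2, 8 in HEK293 and 10 in HippCulture were lower, 0 were higher in HepG2, HEK293 and Neuro2a, and the member medians were -1.38, -1.11, -1.76 and -0.81. HNRNPA1 was then at -0.57, -0.22, -0.92 and -0.51 in the 4 cell types, HNRNPA2B1 at -1.29 and -0.77 in the human lines, HNRNPC at -0.97, -0.68 and, as Hnrnpc in Neuro2a, -1.14, HNRNPK at -1.23 in HepG2, and HNRNPM at -1.24, -0.41 and, as Hnrnpm in HippCulture, -0.51. Between cell types, 1 member differed in UV change and 10 in level for the human lines, with HNRNPA1 at -0.34, HNRNPC at -0.29, HNRNPK at -0.25 and HNRNPR at -0.34, and 9 differed in UV change for the mouse cells, with Hnrnpa1 at -0.41 and Hnrnpc at -0.47. Hnrnpl differed in level by 0.13.

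With DESeq2 size factors HNRNPA2B1 was at -0.0592 and HNRNPM at -0.00039 in HepG2, with the DESeq2 test at -0.0592 and -0.00047, and 0 members were higher in Neuro2a under either. With at least 1 count over the samples, HNRNPA2B1 was at -0.039 in HepG2 and -0.0027 in HEK293, Hnrnpc at -0.029 and Hnrnpa1 at -0.0052 in Neuro2a and HippCulture, 0 members were higher in Neuro2a and its median was -0.65. The level difference of HNRNPA2B1 was then 0.014 and that of Hnrnpl 0.017. With at least 10 counts in every sample, all members had lower values in HepG2 than in the main fit. There 7 members were called lower and 1 higher, at a median of -0.35, with HNRNPA2B1 at -0.26, HNRNPK at -0.19 and HNRNPM at -0.21. HNRNPA2B1 was at -0.10 and HNRNPC at -0.030 in HEK293, Hnrnpc at -0.085 in Neuro2a with 0 members higher and a median of -0.70, and Hnrnpa1 at -0.059 and Hnrnpm at -0.055 in HippCulture with a median of -0.36.

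With the replicate block, 2 members were higher in HEK293, where the share of all genes called with it is not given, and HNRNPA2B1 was at -0.013. In the joint human fit 2 members differed in UV change (HNRNPL, adjusted p = 0.0080, and HNRNPU, adjusted p = 0.0091, edgeR) and 9 in level. The level difference in this fit is that between the replicates numbered 1, and replicate 1 stood apart in HEK293. The share of all genes that differed in level with the block is not given. In the joint mouse fit, for which no share over all genes is given, the block added Hnrnpa2b1 and Hnrnpd to the differences in UV change. It put the level difference of Hnrnpl at replicate 1 at 0.074. In HippCulture, where numbers were not taken to pair samples, the block made Hnrnpa2b1 lower (adjusted p = 0.0104, edgeR). It changed no other call of the members in HepG2, Neuro2a or HippCulture beside that of Hnrnpm.

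Pool shares turned sign for HNRNPK (0.44 points by summed counts, 0.81 per transcript length) and HNRNPM (0.027 and 0.13) in HepG2 and for Hnrnpr in Neuro2a (0.56 and 0.021) and, by summed counts, HippCulture (0.070).

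Leaving out 1 sample at a time gave 4 to 6 members lower and 1 to 3 higher in HepG2, 1 to 5 and 1 to 1 in HEK293, 7 to 8 and 0 to 1 in Neuro2a and 4 to 7 and 0 to 0 in HippCulture, with medians of -0.19 to -0.070, -0.45 to -0.21, -0.71 to -0.52 and -0.30 to -0.21. It gave 0 to 1 members with another UV change and 5 to 8 with another level in the human lines, and 3 to 6 and 9 to 9 in the mouse cells. Values crossing 0 were those of HNRNPA2B1 (-0.060 to 0.032 in HepG2 and -0.13 to 0.22 in HEK293), HNRNPK (-0.085 to 0.11 in HepG2), HNRNPM (-0.043 to 0.15 in HepG2 and -0.16 to 0.79 in HEK293), HNRNPC (-0.074 to 0.29 in HEK293), Hnrnpa1 (-0.17 to 0.13) and Hnrnpm (-0.033 to 0.13) in HippCulture. Of the human differences in UV change they were those of HNRNPA1 (-0.011 to 0.18), HNRNPA2B1 (-0.28 to 0.034), HNRNPC (-0.033 to 0.30), HNRNPH1 (-0.25 to 0.10), HNRNPM (-0.81 to 0.12) and HNRNPR (-0.030 to 0.19), and of the mouse differences in level that of Hnrnpl (-0.10 to 0.0084). Pool shares crossing 0 were those of HNRNPM (-0.65 to 0.48 points in HepG2 and -0.082 to 2.47 in HEK293), HNRNPA2B1 (-0.53 to 0.56 in HEK293), Hnrnpr (-0.11 to 0.046 in Neuro2a) and Hnrnpk (-0.29 to 1.07 in HippCulture).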
